A study of Homo sapiens with 15 samples.

Results

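The miR-29 family was followed through all 15 small RNA libraries of the study. Its members were chosen by name, as every entry beginning with hsa-miR-29a-, hsa-miR-29b- or hsa-miR-29c-. That gave 7 mature arms among the 2418 miRNAs counted in the knockdown experiment and 6 among the 2189 counted in the RIP-seq experiment (RNA immunoprecipitation followed by sequencing), where miR-29a-5p is not listed. All libraries came from FTO1C1, FTO2D4 and FTO3C3, uninduced derivatives of the human embryonic kidney line HEK293, so each cell line is 1 clone and stands for 1 replicate. In the knockdown experiment every clone was transfected either with scrambled siRNA or with an FTO-specific siRNA mix at 10 nM and harvested 48 h later, 3 libraries per group. FTO is a demethylase that removes N6-methyladenosine (m6A) from RNA. In the RIP-seq experiment untreated clones gave small RNA without precipitation (input) and small RNA pulled down with an anti-me6A antibody (m6A samples) or with an IgG isotype control (IgG samples), again 3 libraries per group. Levels of FTO mRNA were not analysed here.

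miRNAs of the miR-29 family are made from hairpin precursors whose 3p arm is the usual guide strand. The guide is loaded into an Argonaute protein and pairs with messenger RNAs through its seed, bases 2 to 8 from the 5′ end. The 5p arm is the passenger strand, which is usually degraded. The family is best known for repressing mRNAs of collagens and other matrix proteins, of the DNA methyltransferases DNMT3A and DNMT3B and of the survival factor MCL1. miR-29b-3p is further known for accumulating in the nucleus by means of a short element at its 3′ end.

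The 3 guide strands are shown first, because much of what follows turns on how alike they are. The seed is in capitals and is the same in all 3.
hsa-miR-29a-3p: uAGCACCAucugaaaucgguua
hsa-miR-29b-3p: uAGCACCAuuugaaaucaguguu
hsa-miR-29c-3p: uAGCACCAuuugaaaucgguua
No other human mature miRNA in the RefSeq table shares this seed. Counted from the 5′ end of the first of each pair, miR-29a-3p and miR-29c-3p differ only by C10U, miR-29c-3p and miR-29b-3p differ by G18A, U21G and A22U, and miR-29a-3p and miR-29b-3p by all 4 of these. miR-29b-3p is 23 bases long and carries the letters AGUGUU from base 18, which are found in 0.549% of the 2370 human mature sequences and in no other miR-29 arm.

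The 4 passenger strands, with the same bases in capitals, share no seed with one another or with another mature miRNA of the table.
hsa-miR-29a-5p: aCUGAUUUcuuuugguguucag
hsa-miR-29c-5p: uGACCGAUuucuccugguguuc
hsa-miR-29b-1-5p: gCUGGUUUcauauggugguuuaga
hsa-miR-29b-2-5p: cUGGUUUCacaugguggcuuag
miR-29b-1-5p starts 1 base earlier than miR-29b-2-5p, and over their 22 shared positions they differ by U11C and U19C, so that the shift alone changes the seed. All sequences are from RefSeq (GRCh38.p14). In that build MIR29A (chr7:130876747-130876810) and MIR29B1 (chr7:130877459-130877539) lie on the minus strand of chromosome 7 with 648 bases between them. MIR29C (chr1:207801852-207801939) and MIR29B2 (chr1:207802443-207802523) lie on the minus strand of chromosome 1 with 503 bases between them, inside the long noncoding RNA gene MIR29B2CHG. MIR29B1 and MIR29B2 both encode miR-29b-3p, so its reads cannot be traced to a locus, whereas the miR-29b-1-5p and miR-29b-2-5p strands can.

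The knockdown libraries held between 1991317 and 3876806 reads on miRNAs and the RIP-seq libraries between 186446 (IgG of FTO3C3) and 4973238 (m6A of FTO3C3). The counts are the reads the authors matched to each mature miRNA, and levels are given as reads per 1000000 miRNA reads of the library (RPM). One entry, miR-6080, took between 15.5% and 28.4% of the input reads, between 41.3% and 47.8% of the m6A reads and between 58.0% and 71.6% of the IgG reads, and its count of 563404 was the same in the m6A and IgG libraries of FTO2D4. This share enters every RPM value of the RIP-seq libraries. As a check of the label, miRNAs of other cell types were low in the knockdown libraries. The pluripotency miRNA miR-302a-3p reached 4.88 RPM, the hepatocyte miRNA miR-122-5p 7.03, and the blood cell miRNAs miR-142-3p and miR-451a 7.22 and 10.4. In the RIP-seq libraries miR-451a reached 34.0 and miR-142-3p 17.8 RPM, and the others are not listed. With scrambled siRNA the passengers miR-29a-5p, miR-29b-1-5p and miR-29c-5p had means of 6.08, 7.83 and 10.6 RPM, similar to the knockdown values above. The check therefore does not set these arms apart from miRNAs of other cell types. Each value is a share of the library, so fewer cells that express a miRNA and less of it per cell cannot be told apart.

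HEK293 cells expressed miR-29a-3p and miR-29c-3p at similar moderate levels, and all other arms were several fold lower. With scrambled siRNA, miR-29c-3p stood at 154 RPM in FTO1C1, 223 in FTO2D4 and 189 in FTO3C3, a mean of 189 ± 34.6 (SD, n = 3). miR-29a-3p stood at 164, 221 and 157 RPM in the same order, a mean of 181 ± 35.4 (SD, n = 3). They ranked 237 and 243 among the 2418 miRNAs by mean RPM, and their levels differed by less than the spread between cell lines.

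The next pair were the passenger strand miR-29b-2-5p, at 28.04, 21.9 and 30.1 RPM (mean 26.7 ± 4.27, SD, n = 3), and the guide miR-29b-3p, at 20.3, 32.9 and 26.6 RPM (mean 26.6 ± 6.27, SD, n = 3). Their ranges overlapped as well. The remaining 3 passenger strands were the lowest members and also overlapped one another. miR-29c-5p had 10.6 ± 3.84 RPM, miR-29b-1-5p 7.83 ± 2.82 and miR-29a-5p 6.08 ± 2.93 (SD, n = 3), the last from counts of 25, 7 and 17 reads. The 3 guides and miR-29b-2-5p had 15 RPM or more in each scrambled siRNA library, a cutoff that the study applies to lowered miRNAs, which makes 4 of 7 arms beside 42.7% of all listed miRNAs.

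**Figure D1:**
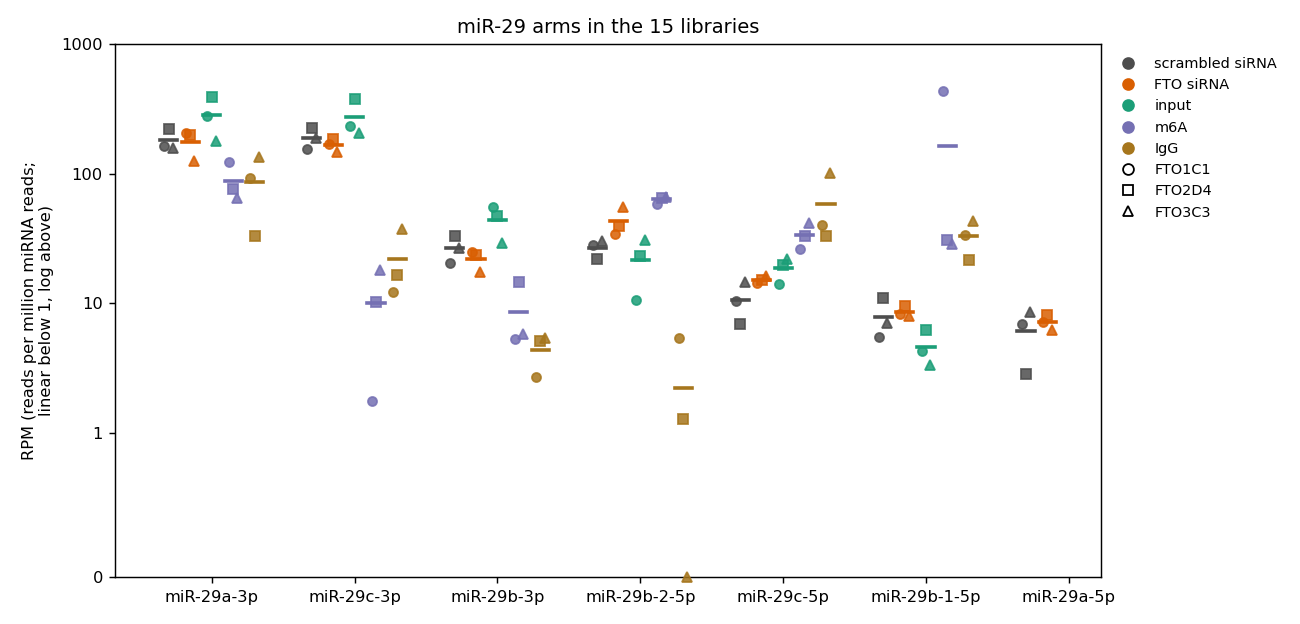
Level of each miR-29 arm in every library, in RPM on an axis that is linear below 1 and logarithmic above; colours mark the 5 groups, symbols the cell lines and short bars the means of 3. miR-29c-3p falls from a mean of 273 RPM in the input to 10.0 in the m6A samples, while miR-29b-2-5p stands at 63.3 RPM in the m6A and 2.22 in the IgG samples.

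In the input of untreated cells the same pair of guides led, again with overlapping values. miR-29a-3p had 280, 389 and 180 RPM (mean 283 ± 104.6, SD, n = 3) and miR-29c-3p 234, 380 and 207 RPM (mean 273 ± 92.8, SD, n = 3). miR-29b-3p followed at 44.0 ± 13.3 RPM. FTO2D4 was the highest line for both leading guides in both the input and the scrambled siRNA libraries. miR-29b-2-5p had 21.5 ± 10.1 RPM and miR-29c-5p 18.7 ± 4.03, which overlap, and miR-29b-1-5p was the lowest at 4.59 ± 1.44 RPM (SD, n = 3), from only 6, 9 and 5 reads.

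The use of the arms differed strongly between hairpins of the family. With scrambled siRNA the guide of miR-29a was counted 23.8, 77.9 and 18.4 times as often as its passenger in FTO1C1, FTO2D4 and FTO3C3, and that of miR-29c 14.7, 32.4 and 13.0 times. miR-29b behaved otherwise. Its 3p arm had 74, 81 and 53 reads against 122, 81 and 74 on both 5p arms together, a ratio of 0.774 ± 0.203 (SD, n = 3 cell lines). For comparison, the median ratio of 3p to 5p reads was 0.818 over the 660 other hairpins with at least 100 reads on both arms together, and 8.64% of those had a ratio over 10.

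Between the 2 miR-29b loci, the chromosome 1 passenger was the more abundant. miR-29b-2-5p was counted 5.10, 2.00 and 4.29 times as often as miR-29b-1-5p in the scrambled siRNA libraries, and 2.50, 3.78 and 9.20 times in the input. The choice of partner therefore sets the arm ratio of miR-29b, which was 3.50 against miR-29b-1-5p alone and 1.04 against miR-29b-2-5p alone with scrambled siRNA. In the input the 3p arm of miR-29b was counted 3.71, 1.60 and 0.863 times as often as both passengers.

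The knockdown of FTO addressed whether levels of miRNAs depend on this demethylase. None of the 7 miR-29 arms passed the test. The counts were fitted with edgeR's quasi-likelihood model, in which each cell line was a block, and p-values were adjusted over 2374 miRNAs. By this test 0 of 7 arms had an adjusted p under 0.05, beside 5.48% of all miRNAs tested (4.97% higher and 0.505% lower). The unadjusted p of edgeR was under 0.05 for 1 arm, miR-29b-2-5p. DESeq2 called none of the 3 arms for which it gave an adjusted p, with 1 unadjusted p under 0.05, that of miR-29c-3p, and gave no adjusted p for the other 4. On this scale the tested miRNAs had a median of 0.29, so a log2 fold change near 0 lies below most of them.

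The values of the guide strands after FTO siRNA lay among those with scrambled siRNA or just beside them. miR-29a-3p had 204, 199.8 and 125 RPM after FTO siRNA (mean 176 ± 44.4, SD, n = 3), with ratios to scrambled siRNA of 1.25, 0.903 and 0.798 in FTO1C1, FTO2D4 and FTO3C3. Only FTO1C1 was above 1. The fitted log2 fold change was -0.05 with a 95% interval from -0.45 to 0.35 (adjusted p = 0.879 by edgeR), and without FTO3C3 it was 0.09. miR-29c-3p had 169, 185 and 146 RPM, ratios of 1.10, 0.828 and 0.773, and a log2 fold change of -0.17 (interval -0.55 to 0.21, adjusted p = 0.541 by edgeR). miR-29b-3p had 24.7, 23.4 and 17.3 RPM, ratios of 1.21, 0.712 and 0.649, and a log2 fold change of -0.27 (interval -0.76 to 0.23, adjusted p = 0.463 by edgeR). The 3 guides thus showed the same split, with FTO1C1 above and FTO2D4 and FTO3C3 below the scrambled siRNA level, and the ranges of the groups overlapped for each. With TMM factors, against a median of -0.00035 for all miRNAs, the values were lower, at -0.56 for miR-29b-3p (interval -1.01 to -0.11, adjusted p = 0.199 by edgeR), -0.46 for miR-29c-3p (interval -0.80 to -0.12, adjusted p = 0.169 by edgeR) and -0.34 for miR-29a-3p (interval -0.69 to 0.01, adjusted p = 0.332 by edgeR). The first 2 of these intervals lay below 0, but no guide passed the adjusted threshold.

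Among the passenger strands, miR-29b-2-5p had the largest value. Its reads numbered 102, 54 and 60 in the scrambled siRNA libraries and 120, 137 and 213 after FTO siRNA, or 28.04, 21.9 and 30.1 RPM and 34.5, 39.6 and 54.9 RPM. The 3 knockdown libraries were all above the 3 scrambled siRNA libraries. It was the only arm of the 7 without overlap, beside 28.2% of all 2418 miRNAs. The ratios were 1.23, 1.81 and 1.82 (mean 1.62 ± 0.338, SD, n = 3), and the log2 fold change of 0.67 had an interval from 0.21 to 1.12 (unadjusted p = 0.00827, adjusted p = 0.0795 by edgeR). With TMM factors its log2 fold change was 0.37 (interval -0.07 to 0.82). A mean ratio over 1.5 with 15 RPM or more in each FTO siRNA library, the study's wider rule for raised miRNAs, which holds no test, was met by this arm alone, 1 of 7 beside 11.0% of all miRNAs. The matching rule for lowered miRNAs was met by 0 of 7, beside 0.703%. The study itself lists miR-29b-2-5p among its significantly increased miRNAs, at the same mean ratio of 1.62, whereas edgeR did not call it here.

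miR-29c-5p had 10.4, 6.90 and 14.6 RPM in the scrambled siRNA libraries, and 14.4, 15.02 and 16.3 RPM after knockdown. It was higher in 3 of 3 lines, but the groups overlapped (log2 fold change 0.54, interval -0.0046 to 1.09, adjusted p = 0.193 by edgeR). For miR-29a-5p and miR-29b-1-5p the log2 fold changes were 0.26 and 0.18, with intervals that spanned 0, and both values changed sign with TMM factors. No direction can be given for either, from 7 to 33 reads per library.

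**Figure D2:**
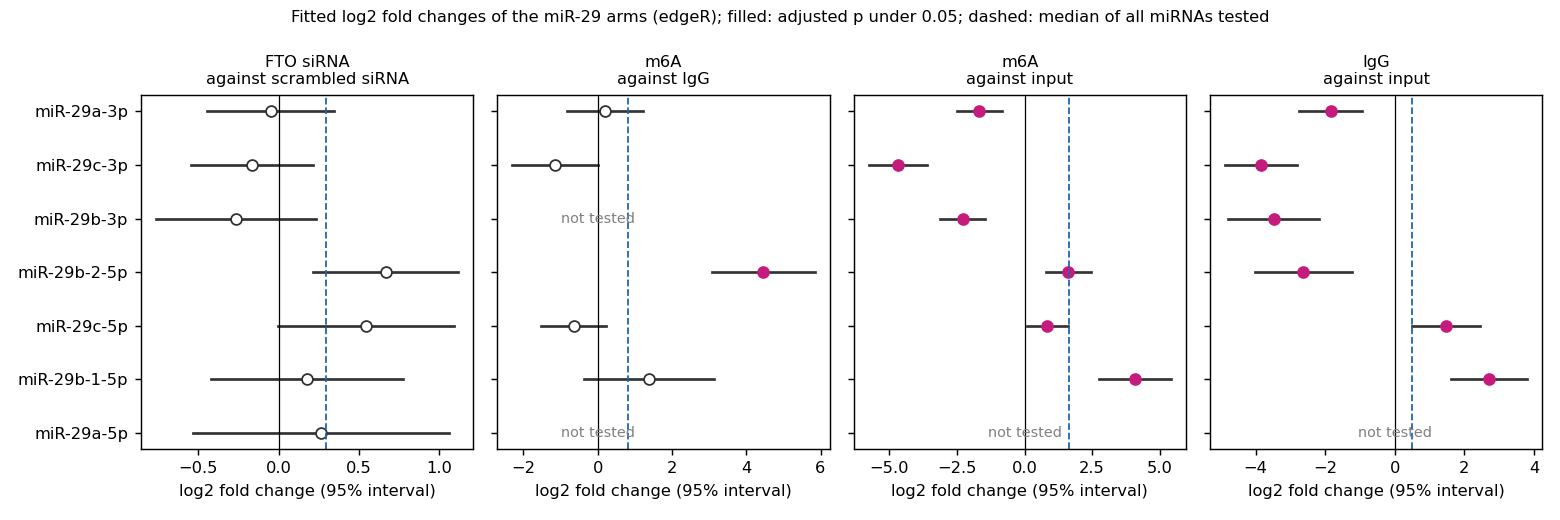
Fitted log2 fold change of each miR-29 arm in the 4 comparisons with its 95% interval from edgeR; filled points have an adjusted p under 0.05 and the dashed line is the median of all miRNAs tested. After FTO siRNA no arm is filled, whereas the 3 guides lie below 0 in both precipitates compared with the input, and only miR-29b-2-5p is filled for m6A against IgG.

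The ratio of 3p to 5p reads was followed within each cell line, where the total of the library cancels. For miR-29c it went from 14.7 to 11.8 in FTO1C1, from 32.4 to 12.3 in FTO2D4 and from 13.0 to 8.98 in FTO3C3. For miR-29b it went from 0.607 to 0.577, from 1.00 to 0.476 and from 0.716 to 0.275. In FTO1C1 the miR-29b ratio stayed inside its scrambled siRNA counting interval (0.448 to 0.816), which covers counting error only. In FTO2D4 and FTO3C3 it fell below that interval of the same line. The miR-29c ratio fell below its interval in FTO2D4 only. Both ratios were thus lower in 3 of 3 lines after FTO siRNA, with mean differences of -0.75 ± 0.57 for miR-29c and -0.84 ± 0.69 for miR-29b on the log2 scale (SD, n = 3). The exact sign-flip permutation test over the cell lines gave p = 0.25 (two-sided) for each, which is the smallest p that 3 lines allow, and an adjusted p of 0.365 over the 19 ratios and sums tested in this way. For miR-29a the ratio was higher in FTO1C1 and FTO3C3 and lower in FTO2D4, where the scrambled siRNA library held only 7 passenger reads (exact permutation test, p = 1.0). Over the 726 other hairpins with at least 100 reads, the median ratio was 0.751 after FTO siRNA, against 0.818 over 660 with scrambled siRNA. These medians come from different sets of hairpins. How many other hairpins had a lower ratio in all 3 lines was not determined. The lower ratios of miR-29b and miR-29c therefore have no such background.

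**Figure D3:**
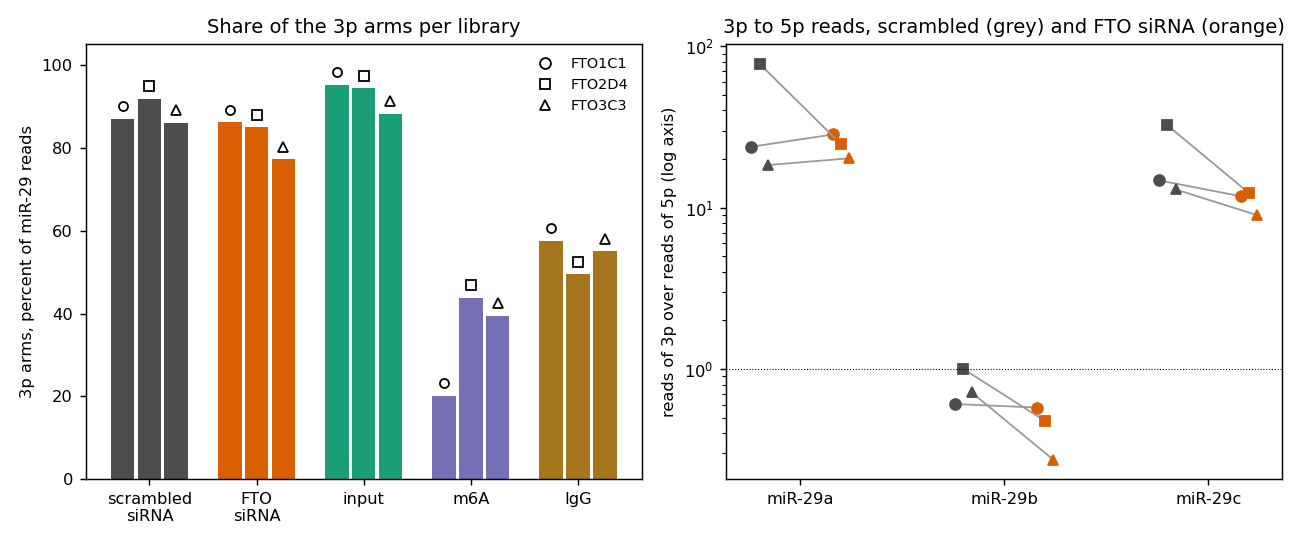
Left, the reads of the 3p arms as a percent of all miR-29 reads in each library, which lie between 77.2% and 95.1% in the knockdown and input libraries and between 20.2% and 57.6% in the precipitates. Right, the ratio of 3p to 5p reads on a log axis with scrambled and FTO siRNA, joined within a cell line. For miR-29b and miR-29c the ratio is lower after FTO siRNA in all 3 lines (exact permutation test, p = 0.25, the smallest possible). Other hairpins were not compared line by line.

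The family as a whole did not move in one direction after knockdown. All arms together had 447 ± 66.7 RPM with scrambled and 439 ± 57.0 RPM with FTO siRNA (SD, n = 3). The family was higher in FTO1C1 and lower in FTO2D4 and FTO3C3 (exact sign-flip permutation test, p = 1.0).

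RIP-seq compared m6A with IgG samples to ask which miRNAs the m6A antibody retains beyond unspecific binding. In the miR-29 family a single arm was called higher in the m6A samples, the passenger miR-29b-2-5p. Over 2054 tested miRNAs, 5 of the 6 listed arms passed the filter on low counts and 1 of these 5 was called by edgeR, beside 39.8% of all miRNAs tested (38.6% higher and 1.27% lower). Both comparisons with the m6A samples use the same m6A libraries and both comparisons with the input the same input libraries, so the results below are not independent of one another.

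miR-29b-2-5p was read 33, 89 and 331 times after m6A but 4, 1 and 0 times after IgG precipitation in FTO1C1, FTO2D4 and FTO3C3. In RPM these are 57.9, 65.3 and 66.6 against 5.39, 1.27 and 0. The 3 m6A values lay close together and far above the IgG values, and it was the only one of 6 arms whose groups did not overlap, beside 51.3% of all 2189 miRNAs. The ratio within the line was 10.7 in FTO1C1 (95% counting interval 3.82 to 41.7) and 51.4 in FTO2D4, where the single IgG read leaves an interval from 8.99 to 2052. In FTO3C3 the IgG count of 0 was replaced by a floor of 3 reads, which gives a ratio of 4.14. The lower end of the counting interval was 3.35. The log2 fold change was 4.45 (SE, the standard error, 0.61, adjusted p = 0.000549 by edgeR), at the 95.8 percentile of all tested miRNAs, whose median was 0.83. Its size rests on 5 IgG reads in all, and it was 5.94 without FTO1C1, 3.90 without FTO2D4 and 3.67 with TMM factors.

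miR-29b-1-5p, the passenger of the other miR-29b hairpin, gave a different picture. Its m6A counts were 245, 42 and 142 and its IgG counts 25, 17 and 8, or 430, 30.8 and 28.6 against 33.7, 21.6 and 42.9 RPM. The high value came from FTO1C1 alone, with ratios of 12.8, 1.43 and 0.665. The log2 fold change was 1.38 (SE 0.77, adjusted p = 0.188 by edgeR), and without FTO1C1 it was 0.02.

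miR-29c-5p had 26.3, 33.0 and 41.4 RPM in the m6A and 40.5, 33.0 and 102 RPM in the IgG samples, which overlapped (log2 fold change -0.64, adjusted p = 0.223 by edgeR). It is the only member with the letters GAC, which start at base 2. GAC or AAC, the core of the consensus known for m6A in mRNA, occurs in 36.1% of the 2370 human mature sequences. The longer form of this consensus, a purine before that core and A, C or U after it, occurs in 20.7% of them and in none of the 7 arms. miR-29b-2-5p thus holds neither form, in a sequence with 3 adenosines. A match or its absence is a description of these letters only.

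No guide was called between the m6A and IgG samples. miR-29a-3p had 123, 75.6 and 65.1 RPM in the m6A and 93.1, 33.0 and 134 RPM in the IgG samples, with ratios of 1.32, 2.29 and 0.486 (log2 fold change 0.19, interval -0.82 to 1.21, adjusted p = 0.759 by edgeR). With TMM factors its value was -0.55, so no direction can be given. miR-29c-3p had 1.76, 10.3 and 18.1 RPM in the m6A and 12.1, 16.5 and 37.5 RPM in the IgG samples. It was below IgG in 3 of 3 lines, with ratios of 0.145, 0.622 and 0.482, although the groups overlapped. Its log2 fold change of -1.14 did not pass the test (interval -2.30 to 0.01, adjusted p = 0.106 by edgeR), and it lay at the 0.730 percentile of all miRNAs tested. With TMM factors it was -1.87 (adjusted p = 0.0171 by edgeR) and that of miR-29c-5p was -1.38 (adjusted p = 0.0155 by edgeR), so the call for both depends on the scale. miR-29b-3p was read only 3, 20 and 29 times after m6A and 2, 4 and 1 times after IgG precipitation, and it was not tested. Its within-line counting intervals all spanned 1, the widest from 0.180 to 44.4 in FTO3C3.

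By the rule of the study, an enriched miRNA has at least 100 RPM in the m6A samples and a mean ratio to IgG of at least 2. With the cutoff applied to all 3 m6A libraries, 0 of the 6 listed arms reached 100 RPM, beside 20.3% of all miRNAs, so none could count as enriched, beside 11.8%. miR-29b-2-5p missed this cutoff in every m6A library. The outcome depends on how the cutoff is applied. On the mean of the m6A libraries, a setting chosen after seeing the data, miR-29b-1-5p passed with 163 RPM and a mean ratio of 4.95, both carried by FTO1C1, 1 of 6 arms beside 15.8% of all miRNAs. The study's own list of enriched miRNAs names no miR-29 arm.

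The comparison with the input shows what each precipitate held of the RNA it came from. All 3 guides were lower and all 3 listed passengers were higher in the m6A samples. edgeR called 6 of 6 arms, beside 77.3% of all miRNAs tested. Of the 6 arms, 3 were called lower, beside 10.5%, and 3 higher, beside 66.8%. The groups did not overlap for any of the 6 arms, which was so for 79.1% of all miRNAs. The median log2 fold change of all miRNAs was 1.65, so the zero line lies far below most miRNAs.

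miR-29c-3p was the furthest down. It was counted 329, 554 and 311 times in the input and 1, 14 and 90 times in the m6A samples of FTO1C1, FTO2D4 and FTO3C3, although the last of these was the deepest library of all. The ratios of RPM were 0.00752 (95% counting interval 0.000190 to 0.0422), 0.0271 and 0.0873. The log2 fold change was -4.69 (SE 0.53, adjusted p = 1.48e-08 by edgeR), at the 0.966 percentile of all miRNAs tested. miR-29b-3p fell from 55.4, 47.3 and 29.3 RPM to 5.27, 14.7 and 5.83 RPM (log2 fold change -2.29, SE 0.41, adjusted p = 1.64e-05 by edgeR). miR-29a-3p fell least among the guides, with ratios of 0.438, 0.194 and 0.362 (log2 fold change -1.67, SE 0.41, adjusted p = 0.000556 by edgeR).

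Among the passengers, miR-29b-1-5p rose most, from 4.26, 6.17 and 3.33 RPM in the input to 430, 30.8 and 28.6 RPM in the m6A samples. Its log2 fold change was 4.09 (SE 0.65, adjusted p = 3.02e-06 by edgeR), and without FTO1C1 it was 2.66. miR-29b-2-5p was 5.44, 2.80 and 2.17 times its input level in FTO1C1, FTO2D4 and FTO3C3 (log2 fold change 1.62, adjusted p = 0.000852 by edgeR). That value equals the median of all miRNAs within its standard error of 0.41, and with TMM factors it was 0.06. miR-29c-5p was 1.86, 1.66 and 1.88 times its input level (log2 fold change 0.84, adjusted p = 0.0411 by edgeR). This is less than the median of all miRNAs, and with TMM factors it was -0.72. Its call was also lost with any 1 cell line left out (adjusted p from 0.104 to 0.115 by edgeR). miR-29b-1-5p and the 3 guides were called in the same direction with TMM factors, DESeq2 and totals without miR-6080.

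The IgG samples were compared with the input in the same way. The guides were low here too. edgeR called 6 of 6 arms, beside 58.6% of all miRNAs tested, 4 of them lower, beside 21.8%, and 2 higher, beside 36.8%. The groups did not overlap for any arm, as for 60.8% of all miRNAs. The log2 fold changes were -3.85 for miR-29c-3p (SE 0.53, adjusted p = 2.84e-12 by edgeR), -3.48 for miR-29b-3p (adjusted p = 9.77e-07) and -1.85 for miR-29a-3p (adjusted p = 0.000223), against a median of 0.49 for all miRNAs. The value of miR-29a-3p was -0.72 with totals without miR-6080 (adjusted p = 0.119 by edgeR) and -1.05 without FTO2D4 (adjusted p = 0.0886 by edgeR).

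The passengers separated from one another. miR-29b-1-5p was 7.92, 3.50 and 12.9 times its input level in FTO1C1, FTO2D4 and FTO3C3 (log2 fold change 2.71, SE 0.56, adjusted p = 5.89e-06 by edgeR). miR-29c-5p was 2.85, 1.66 and 4.63 times its input level (log2 fold change 1.47, adjusted p = 0.00708 by edgeR), but the call was lost with TMM factors (0.91, adjusted p = 0.0544 by edgeR), with DESeq2 (adjusted p = 0.135), without FTO1C1 (adjusted p = 0.0975 by edgeR) and without FTO3C3 (adjusted p = 0.0652 by edgeR). miR-29b-2-5p went the other way, at 0.507 and 0.0546 times its input level in FTO1C1 and FTO2D4. In FTO3C3, where no read was seen, the floor of 3 reads stands for 16.1 RPM, or 0.525 times the input. The upper end of the counting interval was 0.672 times the input. Its log2 fold change was -2.63 (SE 0.71, adjusted p = 0.000565 by edgeR), and it was -4.48 without FTO1C1 and -1.88 without FTO2D4, both called. With totals without miR-6080 it fell below the filter and was not tested. Thus miR-29b-2-5p was low in the IgG samples, while miR-29b-1-5p, which shares 20 of 22 aligned bases with it, was high.

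The closest relatives of the family were then set against each other within a library, where neither the total nor miR-6080 enters. miR-29a-3p and miR-29c-3p differ by the single base C10U. Their ratio of reads was 1.06, 0.991 and 0.830 for scrambled siRNA, 1.21, 1.08 and 0.857 after knockdown, and 1.20, 1.03 and 0.868 in the input, in the order FTO1C1, FTO2D4 and FTO3C3. The 9 libraries made without precipitation thus lay between 0.830 and 1.21. In the m6A samples the ratio was 70.0 (95% counting interval 12.2 to 2804), 7.36 and 3.60, and in the IgG samples 7.67, 2.00 and 3.57. All 6 precipitates were above the 9 other libraries. The lowest, 2.00 in the IgG sample of FTO2D4, had a counting interval from 0.991 to 4.24, which reaches into the range of the other libraries. How often other pairs of miRNAs separate in this way was not determined. On the log2 scale the ratio was higher than in the input by 3.59 ± 2.01 in the m6A and by 1.89 ± 0.87 in the IgG samples (SD, n = 3), in 3 of 3 lines each. The exact sign-flip permutation test gave p = 0.25 (two-sided) for both, the smallest p that 3 lines allow (adjusted p = 0.365). The m6A samples exceeded the IgG samples in 3 of 3 lines, but in FTO3C3 by only 0.01.

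**Figure D4:**
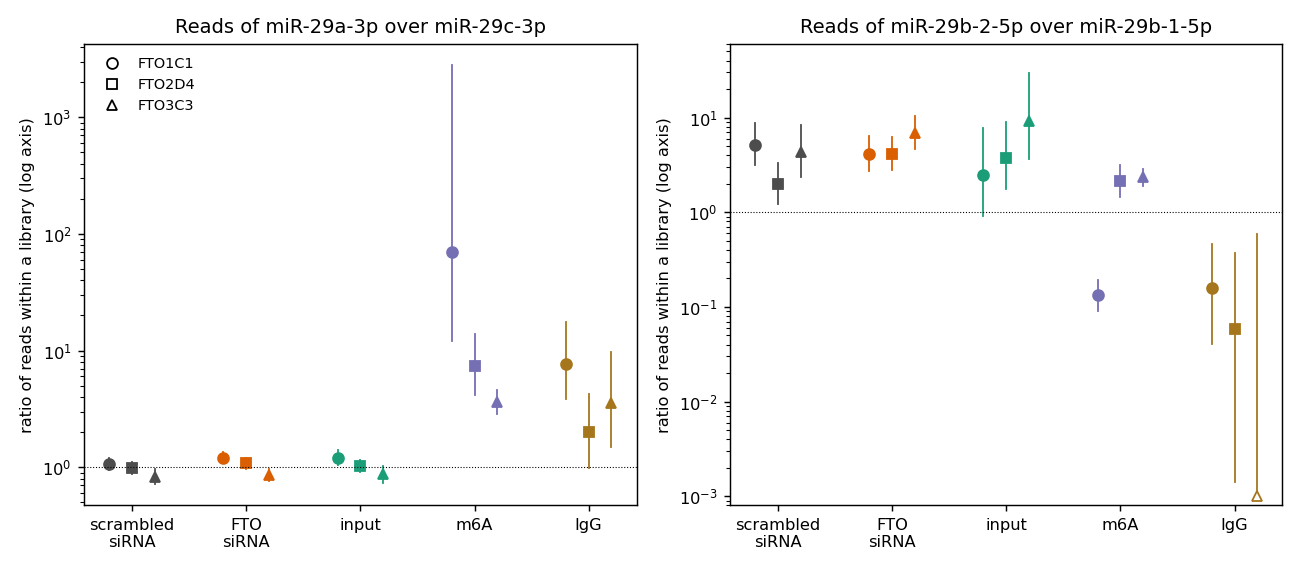
Ratio of reads within each library, on a log axis, for the guides miR-29a-3p over miR-29c-3p (left) and the passengers miR-29b-2-5p over miR-29b-1-5p (right); symbols mark cell lines and vertical lines 95% counting intervals, and the open symbol at the lower edge is a ratio of 0. The guide ratio lies between 0.830 and 1.21 without precipitation and between 2.00 and 70.0 after it, and the passenger ratio is at most 0.160 in the IgG samples.

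The passengers miR-29b-2-5p and miR-29b-1-5p showed a second such contrast, again without a background of other pairs. Their ratio was between 2.00 and 9.20 in all 9 libraries made without precipitation. In the IgG samples it was 0.160 (95% counting interval 0.0405 to 0.463) in FTO1C1, 0.0588 in FTO2D4 and 0 in FTO3C3, where 0 reads stood against 8. In the m6A samples it was 0.135 in FTO1C1, but 2.12 in FTO2D4 and 2.33 in FTO3C3. The m6A ratio of FTO1C1 lay within the counting interval of its IgG ratio, whereas those of FTO2D4 and FTO3C3 lay above theirs. Against the input the m6A ratio was lower in 3 of 3 lines, with differences of -4.21, -0.83 and -1.98 on the log2 scale (exact sign-flip permutation test, two-sided p = 0.25).

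The make-up of the family differed between the groups in the same reads. Shares in the RIP-seq libraries do not include miR-29a-5p. The guides took 88.3% ± 3.10 of all miR-29 reads with scrambled siRNA, 82.7% ± 4.86 with FTO siRNA and 92.5% ± 3.81 in the input (SD, n = 3). They took 54.0% ± 4.16 in the IgG and 34.5% ± 12.6 in the m6A samples, where FTO1C1 was the lowest with 20.2%. For miR-29c the ratio of 3p to 5p reads was 16.5, 19.1 and 9.42 in the input, 0.0667, 0.311 and 0.437 in the m6A and 0.300, 0.500 and 0.368 in the IgG samples. For miR-29b it was at most 0.153 in the m6A and at most 0.222 in the IgG samples. Guides outnumbered passengers for miR-29c in every input library and in no precipitate. Over the other hairpins with at least 100 reads the median ratio was 1.16 in the input (472 hairpins), 0.833 in the m6A (598) and 1.28 in the IgG samples (314). The set of hairpins differs between these medians, so their differences are not shifts of the same hairpins.

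A list of 32 other conserved miRNAs whose guide is the 3p arm, such as miR-92a-3p and miR-103a-3p, gives a background for the guides of the family. In the m6A samples 19 of its 30 tested members were lower than in the input and 5 were higher by edgeR. The shares of all miRNAs tested were 10.5% and 66.8%, and the median log2 fold change of the list was -1.35. In the IgG samples 26 of 30 were lower than in the input and 0 were higher, beside 21.8% and 36.8%, with a median of -4.41. Against IgG, 20 of 28 were higher and 1 was lower in the m6A samples, beside 38.6% and 1.27%. The median there was 2.57, beside the values of 0.19 and -1.14 for miR-29a-3p and miR-29c-3p. After FTO siRNA 2 of 30 were higher and 3 were lower, beside 4.97% and 0.505%, with a median of 0.03.

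Over all 15 libraries, the miRNA whose log2(RPM + 1) followed that of miR-29a-3p most closely was miR-548e-5p (Pearson's r = 0.955), among 1777 miRNAs listed in both experiments with a mean of at least 15 RPM. miR-455-5p (r = 0.894), miR-582-5p (0.878), miR-5699-3p (0.874) and let-7a-3p (0.873) came next. These points share their libraries, and the libraries separate by group, so the values were also taken within each experiment. There r for miR-548e-5p was 0.613 over the 6 knockdown and 0.965 over the 9 RIP-seq libraries. Its mean level was 71.8 RPM in the input and 10.5 in the m6A samples. For the others named, r ran from 0.460 (miR-455-5p) to 0.922 (miR-5699-3p) over the knockdown libraries. Over the RIP-seq libraries it ran from 0.874 (miR-582-5p) to 0.906 (miR-455-5p). Each experiment still holds more than 1 group, so these values also include differences between groups. Among the relatives of miR-29a-3p, r was taken over all 15 libraries only. It was 0.783 for miR-29b-3p and 0.731 for miR-29c-3p, but 0.219 for miR-29b-2-5p, -0.469 for miR-29b-1-5p and -0.525 for miR-29c-5p.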

How the data were processed

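Adapters were trimmed by the authors with cutadapt. Reads of 16 to 28 bp were compared by mamaslemonpy, through maximal exact matches, to mature human miRNAs of miRBase release 20 and not to a genome. Versions of these programs are not given in the sources used here. Reads that fit several entries were given to the one with most matching bases, so a base error can move reads between miR-29a-3p and miR-29c-3p, which differ at 1 base. The values are raw counts of reads per miRNA as deposited.

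RPM were computed here from the total miRNA reads. Both whole tables were tested with edgeR 4.0.16 (glmQLFit, glmQLFTest) after filterByExpr (minimum count 10), with the totals as library sizes, cell lines as blocks and Benjamini-Hochberg adjustment. The SE is the absolute log2 fold change over the square root of F. Each clone gave 1 library per group, which pairs the libraries. Deviations of paired libraries from their group means correlated between 0.121 and 0.189 in the knockdown and between -0.0711 and 0.0661 in the RIP-seq comparisons. The p-values of edgeR set a change against the spread between 3 clones. That spread is estimated for each miRNA with information pooled over all miRNAs tested. Small p-values therefore do not rest on the 3 clones of that arm alone. On simulated counts with 200 miRNAs changed 4-fold, edgeR recovered 96.4% for FTO against scrambled siRNA (2418 miRNAs), and 83.7% for m6A against IgG, 93.5% for m6A against input and 72.9% for IgG against input (2189 each). False calls were 5.66%, 4.51%, 4.27% and 3.50% in this order. The simulated counts held as many raised as lowered miRNAs, and otherwise the same mean profile in both groups without differences between clones. They therefore do not cover errors from a shift in composition, such as that of miR-6080. Ratios were tested with an exact two-sided sign-flip permutation test over cell lines. Counting intervals (95%, Clopper-Pearson) and the floor of 3 reads for a count of 0 cover counting error only, since PCR reads carried no molecular identifiers.

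All 7 arms are named, with the 5 miRNAs most correlated with miR-29a-3p. Members and lists were chosen with earlier results of these data known. Alternatives were TMM factors, DESeq2 1.42.0, no replicate block, no filter, totals without miR-6080, each cell line left out, other partners of miR-29b-3p and an IgG count of 0 set to 1. The cutoff of 100 RPM on the mean, and the rules for miRNAs raised or lowered after knockdown, were added after seeing the data. R 4.3.3, limma 3.58.1, Python 3.11.15 with numpy 2.4.6, scipy 1.17.1, pandas 2.3.3 and matplotlib 3.10.9 were used.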

Additional observations from a re-analysis of the deposited data

How the results depend on the processing

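For m6A against IgG, 3 arms were called with TMM factors, 3 with DESeq2 and 2 of 4 tested with totals without miR-6080, against 1 of 5, and miR-29b-2-5p was called under all 8 alternatives. The log2 fold change of miR-29a-3p there turned to -0.55, -0.58 and -0.48 under these settings and ran from -0.30 to 0.78 with 1 cell line left out. After FTO siRNA, TMM factors turned miR-29a-5p to -0.034 and miR-29b-1-5p to -0.13, and DESeq2 turned the latter to -0.11. With 1 cell line left out, the values ran from -0.23 to 0.085 for miR-29a-3p, from -0.18 to 0.60 for miR-29a-5p and from -0.032 to 0.41 for miR-29b-1-5p. For m6A against input, miR-29c-5p turned to -0.72 with TMM factors and -0.74 with DESeq2. The 3p to 5p ratio of miR-29b with scrambled siRNA was 3.50 with miR-29b-1-5p alone and 1.04 with miR-29b-2-5p alone, against 0.774. With the cutoff of 100 RPM on the mean, 1 arm was enriched, against 0. The cause of these changes was not tested, apart from the change of partner. Without the replicate block that pairs libraries of a clone, 0, 1, 6 and 6 arms were called for FTO siRNA, m6A against IgG, m6A against input and IgG against input, as with it. With 1 cell line left out these numbers were 0, 1, 5 and 5. With TMM factors and with DESeq2, 4 of 6 arms were called for m6A against input, 1 higher and 3 lower. For IgG against input, 5 of 6 were called with each, 1 higher and 4 lower. With totals without miR-6080, 6 of 6 arms were called for m6A against input and 4 of 5 tested for IgG against input.

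Over all miRNAs, the knockdown gave 130 calls (118 higher and 12 lower), but 55 with TMM factors (21 and 34), 94 with DESeq2 (33 and 61), 41 without the block, 201 without FTO3C3 and 0 without FTO1C1, where edgeR gave 327 at an unadjusted p under 0.05. For m6A against IgG, 818 calls (792 and 26) became 470 without FTO2D4, and the split became 453 and 302 with TMM factors, 367 and 249 with DESeq2 and 446 and 257 without miR-6080. For m6A against input, 1681 calls (1452 and 229) became 1086 with DESeq2 (491 and 595), and the split with TMM factors was 575 and 614. For IgG against input, the split of 714 and 423 became 559 and 586 with TMM factors, 447 and 534 with DESeq2 and 1231 and 273 without miR-6080. In the IgG samples 5 of the 6 listed arms had a library with fewer than 20 reads, which limits the precision of their ratios.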
